A study of Homo sapiens with 8 samples.

Results

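The genes of replication licensing examined in peak lists of mitotic chromatin were *MCM2*, *MCM3*, *MCM4*, *MCM5*, *MCM6*, *MCM7*, *CDC6*, *CDT1*, *ORC1* and *GMNN*. They are 10 of 19974 protein-coding genes on chromosomes 1 to 22 and X in the RefSeq table of GRCh38.p14, and all 10 symbols were found in it. Each was described by every called peak that overlapped the gene or the 5 kb on either side. The assay was ATAC-seq, which reads accessibility from where Tn5 transposase can cut and tag the DNA.

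All 8 libraries came from hTERT RPE-1, a human epithelial line immortalised with telomerase, of the genotype Plk1-/- EGFP-Plk1as. These cells lack the endogenous mitotic kinase Plk1 and carry in its place an analog-sensitive form fused to EGFP, which the purine analog 3MB-PP1 inhibits. Both groups had been held for 16 h in 5 µM STLC, an inhibitor of the kinesin KIF11, and mitotic cells had been collected by shake-off. The cells then spent 2 h, still in STLC, with 0.5% DMSO (4 libraries) or with 10 µM 3MB-PP1 (4 libraries). The mitotic index was above 95%. By this design the control cells share the genotype and the STLC arrest with the treated ones. The comparison asks whether Plk1 activity affects accessibility on mitotic chromosomes.

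Licensing prepares origins for a single round of replication. The origin recognition complex, whose largest subunit is ORC1, binds DNA and with CDC6 and CDT1 loads the ring-shaped helicase made of MCM2 to MCM7 as a double hexamer. Loading begins as cells leave mitosis. Geminin, the product of *GMNN*, binds CDT1 and blocks reloading until it is degraded at mitotic exit. Many of these genes are transcribed under E2F factors at the G1/S transition, so their promoters are not at their period of main use in prometaphase.

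Sequences are shown to place E2F-type letters near the gene starts beside the called peaks. RefSeq promoter windows (250 bases before to 50 after a start, GRCh38.p14) matched 8 of the 10 members, in 11 windows. Entries for *MCM4* and *MCM5* were missing. The letters TTTGGCGC, TTTCGCGC, TTTCCCGC and TTTGCCGC were searched on both strands, where matches can overlap each other. At least 1 match was present for 7 of the 8 genes and in 7 of their 11 windows, against 4.08% of 22035 windows of protein-coding genes. Every one of the 13 matches lay within a called peak in 8 of 8 lists. The 8 genes each had a start peak in every list, so this was likely in advance. The share of such matches inside peaks over all windows was not computed. The stretches below are 30 bases long, read 5′ to 3′ on the strand of the gene, with the matches in capitals.
MCM2: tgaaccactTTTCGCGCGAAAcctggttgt
MCM3: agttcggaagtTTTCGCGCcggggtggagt
MCM6: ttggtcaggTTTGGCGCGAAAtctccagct
MCM7: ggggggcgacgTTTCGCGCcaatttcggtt
CDC6: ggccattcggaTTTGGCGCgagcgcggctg
CDT1: ccagggcgcccGCGGGAAAtttggcgggaa
GMNN: gctgggtcggtTTTGGCGCgctctcacttc

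The *MCM2* stretch is chr3:127598404-127598433 on the + strand, and that of *MCM3* is chr6:52284728-52284757 on the - strand. *MCM6* is shown at chr2:135876513-135876542 (- strand) and *MCM7* at chr7:100101388-100101417 (- strand), where the neighbouring gene *AP4M1* is also annotated. The *CDC6* stretch is chr17:40287875-40287904 (+ strand) and that of *CDT1* is chr16:88803743-88803772 (+ strand), where the capitals are TTTCCCGC on the opposite strand. *GMNN* is shown at chr6:24775322-24775351 (+ strand), upstream of the second of its 2 annotated starts. In *MCM2* and *MCM6* a pair of matches on opposite strands overlap, which gives 12 capitals in a row (TTTCGCGCGAAA and TTTGGCGCGAAA).

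The *MCM6* promoter held 4 matches, more than any other window of the 8 genes, as a pair of such overlapping copies. Its 160 bases upstream of the start, chr2:135876444-135876603 on the - strand, are therefore shown whole.
MCM6: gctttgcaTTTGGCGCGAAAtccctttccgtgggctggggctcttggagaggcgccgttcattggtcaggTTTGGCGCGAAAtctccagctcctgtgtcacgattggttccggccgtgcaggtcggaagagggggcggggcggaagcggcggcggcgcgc

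The *ORC1* window held none of these letters, which says only that they are not in that window. The letters CCAAT, on either strand, were found for 6 of the 8 genes and in 8 of the 11 windows (34.7% of all windows hold them). TTTGAA was found for 0 of the 8 genes (12.5% of all windows). GC content of the 11 windows was 55.3% to 74.3%, against a median of 62.3% over all windows, and the number of CG dinucleotides was 22 to 47 against a median of 21.

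The deposited lists held 150577 to 199042 peaks with DMSO and 170682 to 252752 with 3MB-PP1 on the chromosomes used. Read totals are not part of the lists, so depth is unknown and no interval that needs it was computed. Each peak has a pileup, a deposited coverage signal that is not a whole number of fragments, with no stated scaling between libraries. Pileups are therefore given per library and compared only as ranks among the same genes. Peaks were generally narrower with 3MB-PP1 (median 269 to 324 bp, against 355 to 409 bp with DMSO). The libraries numbered 1 and 3 also differed from those numbered 2 and 4 in the share of peaks on chromosome X (0.868% to 0.933% against 0.595% to 0.694%), in both groups. The labels do not explain this split, so differences are also given for odd and even numbers. The labels give replicate numbers but do not say that the libraries came from separate cultures, so p-values measure the spread between these libraries, which may be technical.

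Every licensing gene had a called peak in its window in 8 of 8 lists, as had 84.4% of all protein-coding genes. For each of them a merged region lying over the gene start was also called in 8 of 8 lists. A merged region joins the peaks of all lists, so the peak of a single list need not reach the start. For *MCM4* and *MCM5* the lower-coordinate end of the gene was taken in place of the start. At *MCM5* the peak began 202 bases inside that end in DMSO replicate 4 and 135 bases inside it in 3MB-PP1 replicate 4. Counted by a peak of each list over the RefSeq promoter, all 8 members with an entry had one in 8 lists. The same held for 56.4% of the 15813 genes with an entry. The start peak was the highest of its window in all 8 lists for 8 genes, and the share over all genes was not computed. The exceptions were *CDT1*, in which this held in 1 DMSO list and 1 3MB-PP1 list, and *MCM5*, in which it held in none.

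**Figure D1:**
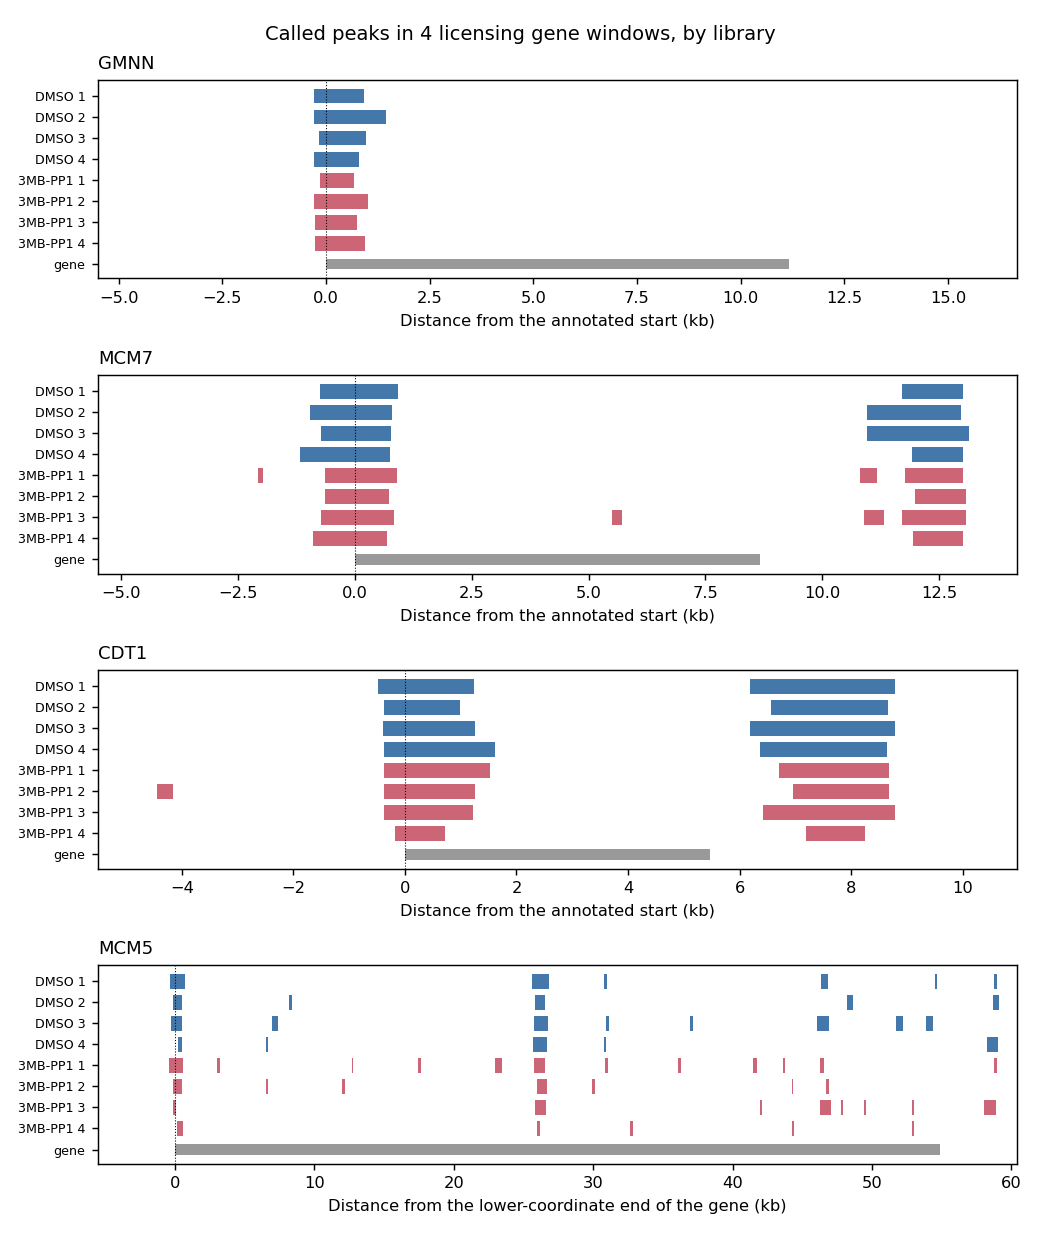
Called peaks (bars) in each of the 8 libraries over the windows of *GMNN*, *MCM7*, *CDT1* and *MCM5*, by distance in kb from the annotated start (for *MCM5*, from the lower-coordinate end). Blue is DMSO and red 3MB-PP1. *GMNN* had 1 peak in every list, while *MCM5* had 5 to 12.

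The genes held very different positions in the ranking. To place each gene, the highest pileup in its window was ranked among all 19974 protein-coding genes of the same list and written as a percentile. This pileup is the height of 1 peak and not a sum over the gene, but a long window offers more places for a peak. In the DMSO libraries the order of mean percentiles was *GMNN*, *MCM7*, *CDT1*, *CDC6*, *ORC1*, *MCM3*, *MCM4*, *MCM6*, *MCM2* and *MCM5*. The 4 DMSO values did not overlap between *GMNN* and *MCM7*, *MCM7* and *CDT1*, *CDT1* and *CDC6*, *MCM3* and *MCM4*, or *MCM4* and *MCM6*. They overlapped between the other neighbours in that order. With 3MB-PP1, *GMNN* and *MCM7* were the only neighbours of this order whose values stayed apart.

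**Figure D2:**
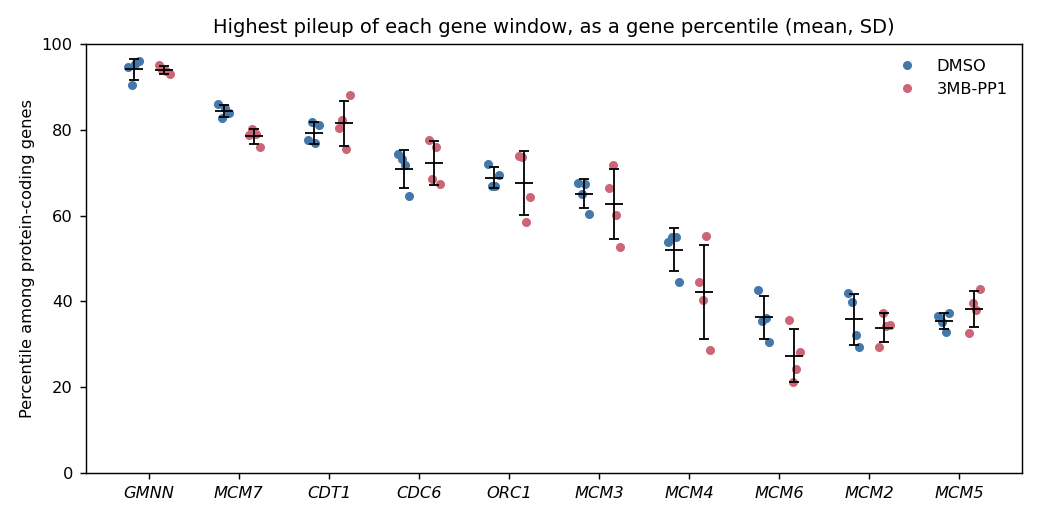
Percentile of each gene among protein-coding genes by the highest pileup of its window. Points are libraries (4 DMSO in blue, 4 3MB-PP1 in red), with mean and SD in black. The *MCM7* points of the 2 treatments do not overlap, and those of every other gene do.

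*GMNN*, which encodes the inhibitor of licensing, had the strongest peak of the set. It lies on chromosome 6 from 24774937 to 24786099, and its only called region ran from 24774638 to 24776381. The pileup there was 103, 79.4, 132 and 79.0 in DMSO replicates 1 to 4 and 62.4, 56.5, 64.0 and 46.4 in 3MB-PP1 replicates 1 to 4. The fold over background, the authors' value within each library, was 5.20 to 6.99 with DMSO and 5.60 to 7.60 with 3MB-PP1. As a gene percentile the same peak stood at 94.6, 90.5, 95.4 and 96.0 with DMSO and at 95.1, 93.9, 93.7 and 93.1 with 3MB-PP1. The raw pileups were all lower in the treated libraries, whereas the percentiles overlapped, with means of 94.1 ± 2.49 (SD, n = 4) and 94.0 ± 0.836 (SD, n = 4). The peak was 1213, 1727, 1133 and 1076 bp long with DMSO and 831, 1306, 1024 and 1216 bp with 3MB-PP1. These lengths overlap, and neither the length (limma, adjusted p = 0.499) nor the rank (adjusted p = 0.87) passed the test.

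Among the loading factors, *CDC6* (chromosome 17, 40287879 to 40304657), an ATPase that joins the origin recognition complex, had a start peak that overlapped between treatments. It measured 1228, 1191, 1215 and 1136 bp with DMSO and 1231, 1045, 1131 and 1196 bp with 3MB-PP1. Its percentile was 74.4, 73.2, 71.7 and 64.5 with DMSO and 77.5, 68.5, 76.0 and 67.3 with 3MB-PP1. In both measures the groups overlapped (limma, adjusted p = 0.736 for length and 0.841 for rank).

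*CDT1* (chromosome 16, 88803789 to 88809258), the loading factor that geminin binds, lay between strong peaks. The region at its start ran from 88803313 to 88805402, and a second region called in 8 of 8 lists ran from 88809969 to 88812578 over the start of the neighbouring gene *APRT*, which makes an enzyme of purine salvage. The start peak was 1715, 1352, 1649 and 1984 bp long with DMSO and 1904, 1619, 1599 and 901 bp with 3MB-PP1, with only 3MB-PP1 replicate 4 below the DMSO range. The *APRT* peak measured 2585, 2090, 2609 and 2276 bp with DMSO and 1971, 1712, 2371 and 1070 bp with 3MB-PP1. Which of the 2 was highest varied between lists, so the rank of this window belongs to both genes. The highest peak of the window was 2206 ± 589 bp (SD, n = 4) with DMSO and 1588 ± 379 bp (SD, n = 4) with 3MB-PP1, and this difference did not pass the test (log2 ratio -0.46 ± 0.26, SE, limma adjusted p = 0.333). The log2 ratio was -0.28 without 3MB-PP1 replicate 4, -0.19 for the start peak and -0.18 for the peak chosen by -log10 p. Peaks covered 22.2% to 27.8% of this short window with DMSO and 12.7% to 25.7% with 3MB-PP1.

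*ORC1* (chromosome 1, 52372829 to 52409503) shares its start region, 52403637 to 52405051, with the oppositely placed splicing gene *PRPF38A*. The start used is that of the RefSeq promoter entry, 52404423 on the - strand. The extent in the gene table reaches beyond it, so this region lies inside that extent. The start peak was 1279, 1331, 1272 and 1275 bp long with DMSO and 1216, 1016, 1215 and 1175 bp with 3MB-PP1. The 4 treated libraries all lay below the 4 controls, the only case of this among the 10 genes, and 12.7% of the 16857 genes tested showed the same for their highest peak (0.166% the reverse). The ratio of treated to control length was 0.894, a log2 difference of -0.16 ± 0.09 (SE), and the adjusted p was 0.327 (limma). The difference was -60.0 bp in odd and -208 bp in even numbers, and the log2 difference was -0.10 without 3MB-PP1 replicate 2. The percentile of *ORC1* was 72.0, 66.9, 67.0 and 69.5 with DMSO and 73.8, 73.7, 58.4 and 64.4 with 3MB-PP1, with the treated values on both sides of the controls (adjusted p = 0.903).

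Of the helicase subunits, *MCM7* (chromosome 7, 100092728 to 100101397) had the peak with the highest pileup. Its mean fold at the start was 3.77 with DMSO and 3.37 with 3MB-PP1. That was below *MCM3* (5.65 and 5.55), *MCM4* (3.87 and 3.76) and *MCM6* (4.0 and 3.57), and above *MCM2* and *MCM5*. The *MCM7* start region, 100100474 to 100102568, also covers the start of *AP4M1*, an adaptor protein gene. A second region called in 8 lists, 100088253 to 100090592, lies over the start of *COPS6*. The *MCM7* start pileup was 76.6, 62.8, 89.3 and 49.2 with DMSO and 37.7, 37.0, 41.2 and 29.4 with 3MB-PP1. Its percentile among genes was 86.0, 82.8, 85.1 and 83.8 with DMSO and 78.7, 80.1, 79.1 and 75.9 with 3MB-PP1. All 4 treated libraries lay below all 4 controls, and 6.56% of genes tested did the same (3.69% the reverse). The mean was 84.4 ± 1.41 with DMSO and 78.4 ± 1.78 with 3MB-PP1 (SD, n = 4 each), a difference of -5.98 percentile points that was not past the threshold (limma, adjusted p = 0.109). The difference was -6.64 in odd and -5.32 in even numbers. With the replicate number as a block the adjusted p was 0.0607, and over all 15 alternatives it ranged from 0.0566 to 0.272. Ranked by -log10 p, the difference was -9.98 points. The length of this peak, 1672, 1744, 1498 and 1928 bp with DMSO and 1552, 1382, 1574 and 1587 bp with 3MB-PP1, overlapped between groups (adjusted p = 0.333).

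*MCM4* (chromosome 8, 47960941 to 47978160) has an accessible region, 47959903 to 47961811, that spans the gap to *PRKDC*, the gene of the catalytic subunit of DNA-dependent protein kinase. The peak over this shared interval was 1659, 1718, 1747 and 1558 bp long with DMSO and 1862, 1768, 1725 and 1574 bp with 3MB-PP1, among the longest start peaks of the set. Its percentile was 53.8, 55.0, 55.0 and 44.5 with DMSO and 44.4, 40.2, 55.2 and 28.7 with 3MB-PP1. The difference of -9.99 points was -4.63 in odd and -15.3 in even numbers and did not pass (limma, adjusted p = 0.322; 0.0712 with the replicate block; range over alternatives 0.0712 to 0.817). It was -5.5 without 3MB-PP1 replicate 4, -5.95 when only peaks at gene starts or ends were ranked and -2.64 when ranked by -log10 p. *MCM6* (chromosome 2, 135839626 to 135876443) showed percentiles of 42.7, 35.5, 36.2 and 30.6 with DMSO and 35.6, 21.3, 24.3 and 28.2 with 3MB-PP1. The treated value was lower in 4 of 4 same-numbered pairs, and the share of all genes with this was not computed. The groups overlapped (difference -8.90 points, limma, adjusted p = 0.266). With the replicate block the adjusted p in limma was 0.0795, and over the alternatives it ranged from 0.0795 to 0.722. The difference was -4.48 when only peaks at gene starts were ranked and -4.31 when ranked by -log10 p. The *MCM6* start peak varied widely within groups, from 855 to 1624 bp with DMSO and from 962 to 1770 bp with 3MB-PP1. Its inner edge lay 647 to 1562 bases into the gene. The values of 855 bp and 647 bases come from DMSO replicate 4. There a further peak of 285 bp, 1161 to 1445 bases into the gene, was called separately in the same region.

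*MCM3* (chromosome 6, 52264015 to 52284742) has no other gene within 5 kb. Its start peak was 1085, 1182, 1109 and 953 bp long with DMSO and 900, 800, 957 and 931 bp with 3MB-PP1. Only DMSO replicate 4 reached into the treated range, and the log2 ratio of -0.27 ± 0.13 (SE) was not past the threshold (limma, adjusted p = 0.275). The positions of the peak's edges were examined after the values had been seen. The upstream edge lay 571.5 ± 83.7 bases (SD, n = 4) before the start with DMSO and 389.2 ± 43.9 bases (SD, n = 4) with 3MB-PP1, and the groups did not overlap. The downstream edge lay at 509.8 ± 27.1 and 506.8 ± 32.4 bases (SD, n = 4 each). Of the 8925 genes with a promoter entry and a peak over it in 8 lists, 9.73% had an upstream edge nearer the start in every treated library and 0.202% farther, and 8.65% had a nearer downstream edge and 0.123% a farther one. None of the other 7 licensing genes with an entry had edges that did not overlap. The fold over background was 5.16 to 6.06 with DMSO and 4.89 to 5.99 with 3MB-PP1, second only to *GMNN* and close to *ORC1* at 4.84 to 5.95 over both groups.

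*MCM2* and *MCM5* had the lowest mean fold at the start in the DMSO libraries, 2.92 ± 0.45 and 2.61 ± 0.405 (SD, n = 4 each). At *MCM2* (chromosome 3, 127598411 to 127622436), whose start region of 127597914 to 127598964 is shared with *TPRA1*, the peak was 967, 858, 600 and 528 bp long with DMSO and 778, 582, 685 and 625 bp with 3MB-PP1. The fold was 2.53 to 3.56 with DMSO and 2.77 to 3.01 with 3MB-PP1. At the lower-coordinate end of *MCM5* (chromosome 22, 35400140 to 35455031) the peak was 1083, 681, 758 and 336 bp long with DMSO and 971, 626, 230 and 422 bp with 3MB-PP1. Both start peaks overlapped between treatments in length. For the highest peak of the window, which at *MCM5* was never the peak at that end, limma gave adjusted p = 0.817 (length) and 0.825 (rank) for *MCM2* and 0.699 and 0.704 for *MCM5*. The peak at the lower-coordinate end of *MCM5* was not tested on its own.

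**Figure D3:**
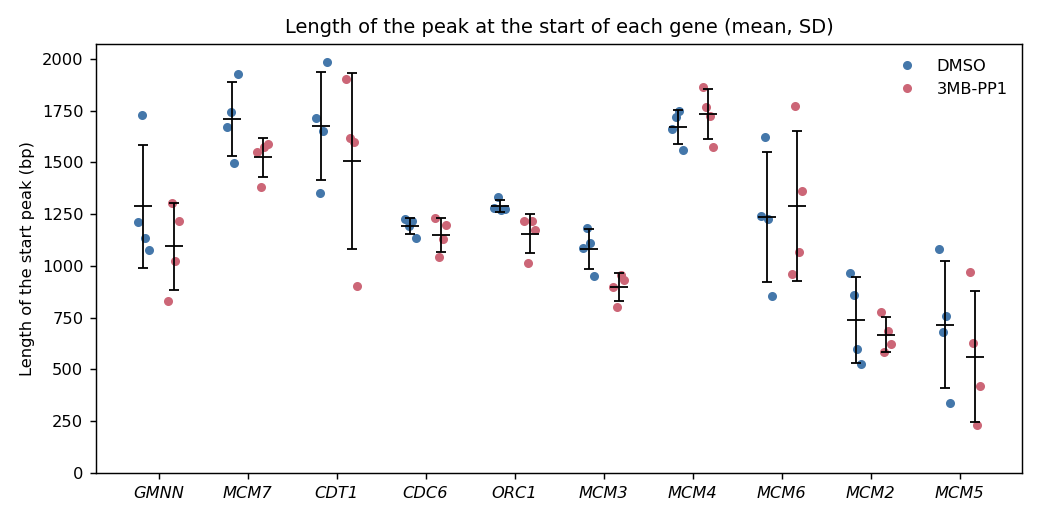
Length in bp of the peak at the start of each gene, in the order of the DMSO percentile (for *MCM4* and *MCM5*, at the lower-coordinate end). Points are libraries, with mean and SD in black. The *ORC1* points of the 2 treatments do not overlap (1272 to 1331 bp against 1016 to 1216 bp).

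*MCM5* also stood out by peaks inside the gene. A region within it, chromosome 22 from 35425742 to 35426999 and 25602 to 26859 bases from the lower-coordinate end, was called in 8 of 8 lists. Its peak was 1258, 712, 988 and 987 bp long with DMSO and 796, 693, 805 and 222 bp with 3MB-PP1. The gene table gives gene extents only, so exon or intron was not assigned. No other licensing gene had a region called in 8 lists within its body away from the start. The -log10 q of this region was 1.48 to 3.16 in every list.

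In all, the 10 windows held 81 merged regions, of which 13 (16.0%) were called in 8 lists and 56 (69.1%) in a single list. Over the genome the shares were 6.23% and 51.9% of 588244 regions. The 13 regions were the 10 at the gene starts, those at *APRT* and *COPS6*, and that inside *MCM5*. *MCM5* held 28 of the 81 regions, 20 of them called in 1 list, in a window of 64892 bp, while *GMNN* held 1. No region was called in 4 of 4 lists of a treatment and 0 of 4 of the other (genome-wide, 0.12% in DMSO only and 0.148% in 3MB-PP1 only), and none differed by 3 lists or more. A difference of 2 lists was found for 4 regions, which were singled out after their values were seen. A region within *MCM5*, 35430947 to 35431262, was called in 3 DMSO lists and 1 3MB-PP1 list. The other 3 were called in 0 DMSO and 2 3MB-PP1 lists, at 35444394 to 35444555 and 35453011 to 35453178 within *MCM5* and at 52376661 to 52376996 within *ORC1*. The windows held 18, 17, 24 and 25 peaks with DMSO and 32, 22, 37 and 24 with 3MB-PP1, the highest number being in the longest list (252752 peaks). Covered length did not separate the treatments in any of the 10 windows, as it did for 7.25% of genes (lower with 3MB-PP1) and 0.943% (higher).

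**Figure D4:**
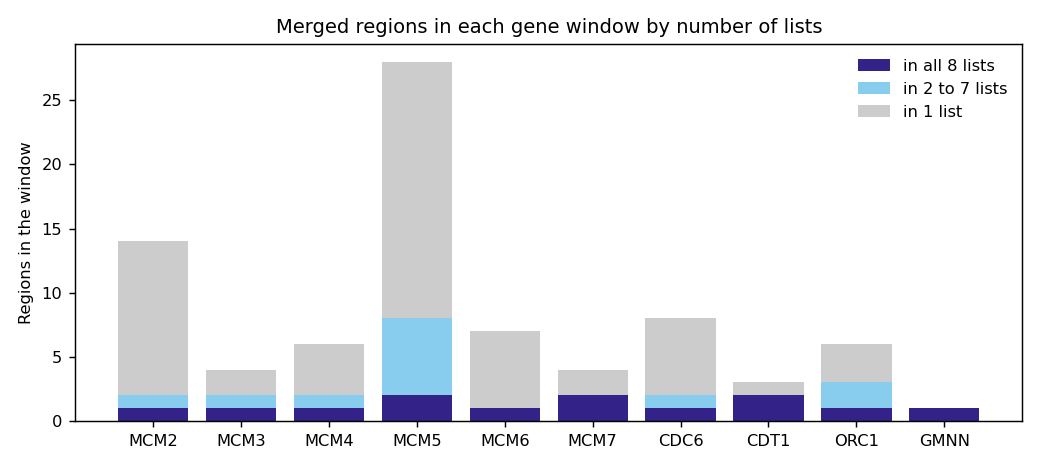
Number of merged regions in each gene window (bar height), by the number of lists in which they were called. *MCM5* has 28 regions and *GMNN* 1, and every gene has at least 1 region in all 8 lists.

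With a stricter threshold, a -log10 q of at least 5, differences in calling appeared on 1 side. Such a peak was present in 8 of 8 lists for *MCM3*, *MCM7*, *CDC6*, *ORC1* and *GMNN* (34.7% of all genes). *MCM4* kept one in 4 DMSO and 2 3MB-PP1 lists, *MCM6* in 3 and 1, *CDT1* in 4 and 3, and *MCM2* and *MCM5* each in 1 and 0. So 5 of 10 genes were called in more DMSO lists and 0 in more 3MB-PP1 lists, while over all genes the shares were 25.8% and 1.39%. None of the 10 went from 4 lists to 0, as 0.436% of genes did. Over the whole lists, peaks at this threshold numbered 9952 to 17547 with DMSO and 7000 to 12313 with 3MB-PP1. The one in the *MCM5* window, in DMSO replicate 1, was 198 bp long. It lay inside the gene, 30807 to 31004 bases from the lower-coordinate end, and not at that end.

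Across the whole table, 225 of 16857 genes (1.33%) had a shorter highest peak with 3MB-PP1 and 0 (0%) a longer one (limma, adjusted p of at most 0.05), and none of the 10 licensing genes was among them. With the replicate number as a block, 74 genes (0.439%) were shorter and 0 (0%) longer, again with 0 of the 10. Their log2 length ratio was negative for 8 of 10, against 86.0% of all genes tested. Its median was -0.16 for the licensing genes (ratio 0.893) and -0.23 for all genes (ratio 0.853). For the rank, 23 genes (0.136%) were lower and 85 (0.504%) higher, and again none of the 10 was called. With the replicate number as a block these counts rose to 519 (3.08%) and 640 (3.80%), still without a licensing gene. The median difference in percentile was -1.62 points for the 10 genes, 7 of which were lower, and -0.286 points for all genes, of which 53.3% were lower in the fit. At an unadjusted p under 0.05 in limma, 0 of the 10 genes passed in length, against 20% of all genes tested, and 2 in rank (*MCM6* and *MCM7*), against 17.5%. With the replicate block 0 passed in length (19.8% of all genes) and 3 in rank (*MCM4*, *MCM6* and *MCM7*), against 26.4%.

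**Figure D5:**
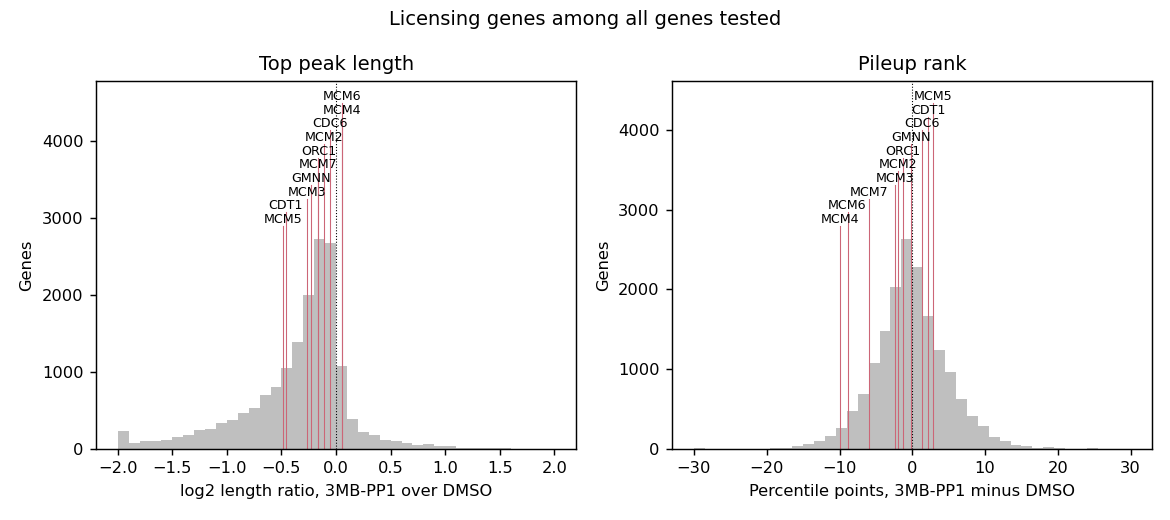
Distribution over all 16857 genes tested (grey) of the log2 ratio of highest-peak length (left) and of the difference in percentile points by pileup (right), 3MB-PP1 against DMSO, with the 10 licensing genes marked. The outermost bars include values beyond the axis, and the licensing genes reach from -9.99 (*MCM4*) to 2.80 points (*MCM5*) on the right.

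The other genes of the pathway, a list of 29 with the remaining origin recognition subunits, the helicase activators and the regulators of CDT1, were read in the same way. Of these, 28 could be tested, and *GINS1* could not, having a peak in 4 DMSO and 3 3MB-PP1 lists. For length 1 of 28 was called lower (1.33% of all genes) and 0 higher (0%), and for rank 1 was lower (0.136%) and 0 higher (0.504%). The gene called in rank was *DTL* (chromosome 1, 212035748 to 212105013), the substrate receptor of the ubiquitin ligase that removes CDT1 in S phase. Its percentile was 95.7, 96.2, 95.2 and 96.8 with DMSO and 90.8, 92.8, 91.6 and 92.6 with 3MB-PP1. All treated values lay below all controls, a difference of -4.01 points (limma, adjusted p = 0.0374; odd -4.24, even -3.77). Leaving out any 1 library other than 3MB-PP1 replicate 4 ended the call (highest adjusted p 0.139, without DMSO replicate 2), while the difference stayed between -4.29 and -3.61 points. The adjusted p was 0.0136 with the replicate block, 0.00917 with odd or even number as a term and 0.0139 at the stricter q. Ranking by -log10 p gave -2.42 points (adjusted p = 0.236).

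The gene called in length was *RECQL4* (chromosome 8, 144511288 to 144517833), a helicase of replication initiation. Its highest peak was 2720, 2336, 2613 and 2157 bp long with DMSO and 1515, 1165, 1334 and 905 bp with 3MB-PP1, again with no overlap. The log2 ratio was -1.02 ± 0.16 (SE, limma adjusted p = 0.0233), with differences of -1240 bp in odd and -1210 bp in even numbers. It missed the threshold without DMSO replicate 1 (0.0838), 2 (0.0655) or 3 (0.0843) and without 3MB-PP1 replicate 2 (0.061), and the ratio was -0.22 when the peak was chosen by -log10 p (0.632). The *RECQL4* percentile moved the other way, from 84.9 ± 1.04 with DMSO to 89.8 ± 3.82 with 3MB-PP1 (SD, n = 4 each). The groups overlapped, and the difference of 4.93 points did not pass (limma, adjusted p = 0.188, and 0.0728 with the replicate block). The 28 genes had a median log2 length ratio of -0.16 and a median difference of -2.63 percentile points.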

How the data were processed

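Each library has its own deposited peak list, made by the authors, with no header. MACS2 and DESeq2 and the build hg38 are named in the submitters' processing notes; aligner, read filters, any Tn5 shift and peak calling settings are not given in the sources used here. From the values, a line gives position (start counted from 1), the peak length in bp, the deposited pileup (a coverage signal, no stated scaling), the deposited -log10 p and -log10 q, and the authors' fold (a ratio of pileup to background). The smallest -log10 q of a list was 1.0 to 1.002.

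Peaks on chromosomes 1 to 22 and X that overlapped a gene and 5 kb either side by at least 1 bp were assigned to it, and the highest by pileup was its top peak. Genes with a peak in all 8 lists (16857) were fitted with limma 3.58.1 (R 4.3.3, trend) on log2 length and on normal scores of the gene rank, all 8 libraries, adjusted by Benjamini-Hochberg over all genes tested. Regions merge the 8 lists. Tables were joined in pandas 2.3.3 (Python 3.11.15, numpy 2.4.6) and drawn with matplotlib 3.10.9. No pair of lists shared more than 0.0339% of identical positions.

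Same-numbered libraries deviated together in gene rank (correlations 0.156 to 0.436) and not in length (0.0102 to 0.0732), by a limit of 0.1 in every pair. The main fits of both measures left the replicate number out, so their p-values do not use this pairing in rank. Fits with the replicate number as a block were run for both measures as an alternative. Libraries of different number but both odd or both even also correlated in rank (0.161 to 0.296). Those of unlike parity did so negatively (-0.427 to -0.158). The deviations were taken from the mean of each group, which forces negative values where others are positive, so these are not separate evidence. By its construction the block also carries the odd and even split. In simulated data for the 16857 genes, 38% of genes with a log2 length shift of 1 and 71% with a shift of 2 were recovered, and for rank 99% at a shift of 1 normal score. These shifts are larger than any fitted for the members, at most -0.488 in log2 length (*MCM5*) and -0.258 normal scores (*MCM4*). The simulated libraries were also drawn independently of each other. Recovery of differences as small as those of the members was not tested. The members and lists were chosen with earlier results of these data known. Named were all 10 members, the pathway genes called, neighbours with an end in a window, and regions that differed by 3 lists or more; the *MCM5* regions singled out beside these were chosen after their values were seen. Alternatives are given in the closing section.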

Additional observations from a re-analysis of the deposited data

Results flagged for a closer look

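In 60 groups of 4 libraries (10 genes, 3 measures, 2 treatments), 6 had a library whose gap to its nearest neighbour was above Dixon's critical share of the range, where chance gives about 1 in 20. Peaks in the *MCM3* window covered 1873 bp in 3MB-PP1 replicate 1 and 800 to 957 bp in the other treated lists, and that list had 3 peaks there against 1 in each of the others. In the *CDT1* window, covered length was 3442 bp in DMSO replicate 2 against 4258 to 4300 bp, and 1971 bp in 3MB-PP1 replicate 4 against 3630 to 3970 bp. For *MCM4*, DMSO replicate 4 had a percentile of 44.5, below the 53.8 to 55.0 of its group. The highest *MCM7* peak was 1382 bp long in 3MB-PP1 replicate 2 and 1552 to 1587 bp in the other treated lists. For *ORC1*, DMSO replicate 2 had the longest, 1331 bp, above the 1272 to 1279 bp of its group. No cause was tested.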

How the results depend on the processing

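No licensing gene passed the threshold in length or rank under any alternative run. Of 155 recomputed length differences 151 kept their sign, and of 145 rank differences 130 did. Leaving out 1 library gave log2 length differences of -0.256 (without DMSO replicate 4) to 0.0347 (without DMSO replicate 1) for *MCM2*, -0.959 (DMSO replicate 1) to 0.00185 (3MB-PP1 replicate 4) for *MCM5* and -0.107 (DMSO replicate 4 or 3MB-PP1 replicate 2) to 0.202 (DMSO replicate 2) for *MCM6*. In percentile points it gave -4.10 to 0.0611 for *MCM2* (sign turned without DMSO replicate 1), -5.38 to 0.993 for *MCM3* (3MB-PP1 replicate 4), -0.797 to 3.02 for *CDC6* (DMSO replicate 4 and, at -0.383, 3MB-PP1 replicate 1), -0.00751 to 4.20 for *CDT1* (3MB-PP1 replicate 4), -3.35 to 1.79 for *ORC1* (3MB-PP1 replicate 3) and -1.37 to 0.474 for *GMNN* (DMSO replicates 3, at 0.268, and 4, and 3MB-PP1 replicate 4, at 0.119). At -log10 q of at least 5, *MCM3* gave 1.01 and *ORC1* 0.973; with -log10 p in place of pileup, *MCM5* gave -0.0375 and *CDT1* -7.08; with the start peak, *MCM2* gave 0.26; with 1 kb flanks, *CDT1* gave -1.87.

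Over all genes, shorter peaks numbered 74 with the replicate block and 99 to 512 leaving out 1 library (lowest without DMSO replicate 1, 2 or 3, at 99, 115 and 100, and highest without DMSO replicate 4). Longer ones numbered 0 to 2 leaving out a library, 1 with 1 kb flanks, 2 by -log10 p and 1 at the start. Lower ranks numbered 519 with the replicate block, 376 with odd or even number as a term, 121 at the stricter q, 3 by -log10 p and 108 at the start; higher ranks numbered 640, 434, 335, 32 and 178. Leaving out 1 library gave 0 to 89 lower and 6 to 131 higher ranks, most without DMSO replicate 4 and, of the other libraries, at most 22 lower and 85 higher (without 3MB-PP1 replicate 4).

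Covered length over the 10 windows differed by -829.8 bp, and by -3717 bp at the stricter q, where 5 licensing windows and 6930 of all genes kept a call in 8 lists. Leaving out a library gave -1953 to 408.5 bp, positive without 3MB-PP1 replicate 4. At the stricter q, merged regions numbered 11, with 5 in 8 lists. With peaks of at least 300 bp there were 30 regions, and with 50% coverage 7 regions in 8 lists. The cause was not tested. Depth is unknown.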

Other observations

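At *CDC6*, the gene of a loading ATPase, the downstream edge of the start peak varied little with 3MB-PP1, at 682.2 ± 2.87 bases (SD, n = 4) from the start, and more with DMSO, at 669.2 ± 32.9 bases (SD, n = 4). The gene was singled out after its values were seen, and the difference in spread was not tested.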
